A study of Mus musculus with 24 samples.

Results

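The genes described here encode the proteins of the cytosolic ribosome. They were chosen by symbol, as all genes of the day 1 to 4 count files named Rpl or Rps with a number, together with Rpsa, Rplp0, Rplp1 and Rplp2, that held at least 200 counts summed over 16 libraries. The rule took 88 of 30590 genes, and every gene with such a name passed the minimum. The lowest sums were 233 counts for Rps12l1, 642 for Rpl3l and 810 for Rpl24, and no gene lay just outside. By role, 46 members were large-subunit genes, 31 were small-subunit genes, 6 were paralogues that stand beside a main gene (Rpl22l1, Rpl39l, Rps27l, Rpl3l, Rpl10l and Rpl7l1) and 5 were copies annotated as pseudogenes (Rpl6l, Rps12l1, Rps3a2, Rps3a3 and Rps4l). The same 88 genes were found by Ensembl identifier in the endpoint files.

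The libraries hold polyadenylated RNA of E14 cells, a mouse embryonic stem cell (mESC) line of 129/Ola background, either wild type (WT) or with Ago2 knocked out (KO). For days 1, 2, 3 and 4 of a 5-day protocol directed towards extraembryonic endoderm (XEN) cells, each genotype had 2 libraries per day, from cells plated on gelatin in RPMI with 15% serum, 0.1 µM all-trans retinoic acid and 10 ng/mL activin A. The endpoint set held 2 WT mESC libraries at passages 33 and 42, grown with 15% serum and 100 U/mL LIF, and 2 libraries labelled diff_XEN of each genotype. The column names tie the KO diff_XEN libraries to clones C4 and 5-3, 1 library each, and no label names the clone used for the KO time course. Nothing in the labels states whether replicates came from different cultures, and the p-values below therefore speak of the spread among these libraries, which may be technical.

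A ribosome joins a small subunit, which reads the mRNA, to a large subunit, which forms the peptide bond, and each is built from ribosomal RNA and a fixed set of proteins made in near-equal amounts. The mRNAs of these proteins belong to the TOP class: they begin with a cytosine followed by a run of pyrimidines, and their translation follows mTORC1 activity through proteins such as LARP1. Mammals also carry paralogues that can stand in for a main protein in particular tissues, such as RPL3L in striated muscle and RPL10L and RPL39L in testis, and many processed pseudogenes that copy the mRNAs.

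Members differed in how well reads could be told apart from those of other genes. Of the 88, 85 shared at least 1 stretch of 50 bases with a transcript of another gene of the GENCODE vM21 annotation (GRCm38), 45 shared at least 50% of such stretches, and the median was 51.5%. Rps12l1 shared 100% of its stretches, whereas Rpl3l and Rpl39l shared 0%. Values for members with high sharing, and for Rpl24, of whose exon bases 47.0% overlap another gene on the same strand, are therefore uncertain. Per kilobase of all annotated exon bases of a gene, the members with the highest mean level over days 1 to 4 were Rplp1 (3339 CPM per kb of exon), a protein of the lateral stalk that recruits elongation factors, Rpl4 (1426 CPM per kb of exon) and Rpl8 (1317 CPM per kb of exon), both proteins of the large subunit. The lowest were Rpl3l (1.19 CPM per kb of exon), Rps12l1 (1.77 CPM per kb of exon) and Rpl24 (2.46 CPM per kb of exon). Divided by the length of 1 listed mRNA instead, Rps12 (2060 CPM per kb of mRNA) and Rps18 (1981 CPM per kb of mRNA) followed Rplp1, so the order below the first depends on the length used. CPM are counts divided by the TMM-scaled library size, on the usual scale of that unit. The members lay on 19 chromosomes, with 15 on chromosome 7 and 4 on the X chromosome (Rpl10, Rpl36a, Rpl39 and Rps4x).

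Start-site sequences show the pyrimidine-rich letters that many members share and how paralogue pairs differ there. RefSeq (GRCm38.p6) gave a start for 63 of the 88 members. Each line below runs 5′ to 3′ on the strand of the gene, from 20 bases before the listed start to 10 bases from it on, with CTTTCC in capitals. Rpl38 is shown as a large-subunit gene that holds the letters, and Rplp2 as a stalk gene that holds a pyrimidine run without them. The other lines are 3 main genes, each followed by its paralogue. Their positions are chr11:114668560-114668589 (+) for Rpl38, chr7:141447631-141447660 (+) for Rplp2, chr3:90213639-90213668 (-) for Rps27, chr9:66946066-66946095 (+) for the first listed start of Rps27l, chrX:37085213-37085242 (-) for Rpl39, chr16:10170208-10170237 (+) for Rpl39l, chrX:74270796-74270825 (+) for Rpl10 and chr12:66284392-66284421 (-) for Rpl10l.
Rpl38: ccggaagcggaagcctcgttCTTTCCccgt
Rplp2: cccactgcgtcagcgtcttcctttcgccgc
Rps27: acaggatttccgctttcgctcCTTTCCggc
Rps27l: cctctccactcctccccgccgcctctatcc
Rpl39: ccccccctaagctccgcctctagcgacttc
Rpl39l: cctagctcccaggcCTTTCCggatttccgg
Rpl10: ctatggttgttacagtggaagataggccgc
Rpl10l: agaaatttggcctccattttgcggctggcg

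In a window from 40 bases before to 50 bases after each listed start, CTTTCC on the strand of the gene was present in 19 of 63 members (30.2%), against 4.87% of 27025 genes. On the other strand it was present in 3.17% of the members and 4.70% of all genes. The shorter CTTTC, which lies within CTTTCC, was found in 50.8% of the members and 13.2% of all genes, CTCTTTC in 19.0% against 1.43%, and TCTTTCC in 15.9% against 1.31%. On the other strand these 3 were found in 14.3%, 1.59% and 1.59% of the members and 12.7%, 1.37% and 1.36% of all genes. TTCCGG was found in 15.9% against 4.89% on the strand of the gene, and in 20.6% against 4.41% on the other strand. TATAAA was found in 7.94% against 3.68% (1.59% against 1.91% on the other strand), and CTTCC in 42.9% against 20.3% (30.2% against 23.2% on the other strand). Together with a palindrome not shown, these 8 strings were picked while the windows were being inspected and overlap one another, so the shares are a description. Members with and without CTTTCC had median log2 differences of 0.70 and 0.68 between KO and WT on day 1, of -0.40 and -0.41 between day 4 and day 1 in WT, and of -1.27 and -1.25 in KO. In the test of the difference in change described below, 0 of the 19 members with CTTTCC and 8 of the 44 without it passed, and whether these shares differ was not tested.

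Total counts ranged from 10601574 to 27147835 per library on days 1 to 4 and from 13941826 to 40139219 in the endpoint set. Ago2 was at 186 to 581 CPM in the 8 WT libraries and 33.8 to 148 CPM in the 8 KO libraries of days 1 to 4, with no overlap. In diff_XEN it was at 389 and 427 CPM in WT, and at 115 CPM in KO clone C4 and 9.35 CPM in KO clone 5-3. The 2 clones thus differed in Ago2, and the part of this in the diff_XEN results was not tested. Summed over 10 primitive endoderm and XEN markers, none of them at 0, WT libraries were at 372 to 414 CPM on day 1 and 7145 to 7529 CPM on day 4, and KO libraries at 172.5 to 210.2 and 1502 to 1851 CPM. The 6 pluripotency markers summed to 1906 to 2275 CPM in WT and 2561 to 2639 CPM in KO on day 1, and to 201.0 to 392 and 76.8 to 190.5 CPM on day 4. The 5 neural markers summed to 65.7 to 71.6 CPM in WT and 110.6 to 126.9 CPM in KO on day 1. The 6 fibroblast and mesenchyme markers were at most 35.1 CPM on day 1, with Dcn, Postn or Col3a1 at 0 in each library, and 831 to 1611 CPM on day 4, and the 4 haematopoietic markers were at or below 1.68 CPM throughout. The part of these marker differences in the results below was not tested.

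Together the members took 4.56% to 12.57% of the counts of a day 1 to 4 library. In WT they took 7.96% and 6.94% on day 1, 7.92% and 8.83% on day 2, 6.58% and 6.76% on day 3, and 5.17% and 5.36% on day 4. In KO the shares were 9.30% and 12.57% on day 1, 8.0% and 6.80% on day 2, 7.19% and 5.11% on day 3, and 4.56% and 4.71% on day 4. The group means were 7.45% ± 0.72, 8.37% ± 0.64, 6.67% ± 0.13 and 5.27% ± 0.13 in WT and 10.9% ± 2.3, 7.40% ± 0.85, 6.15% ± 1.48 and 4.63% ± 0.10 in KO (SD, n = 2). Both KO libraries of day 1 lay above every WT library, and both KO libraries of day 4 lay below every WT library of the course. The exact binomial 95% interval of each share was narrow, such as 12.56% to 12.59% for replicate 2 of KO day 1, so counting error was far smaller than the gap between replicates. Such intervals cover counting error only. In RNA of whole cultures, fewer cells of a type and less RNA per cell cannot be told apart.

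**Figure D1:**
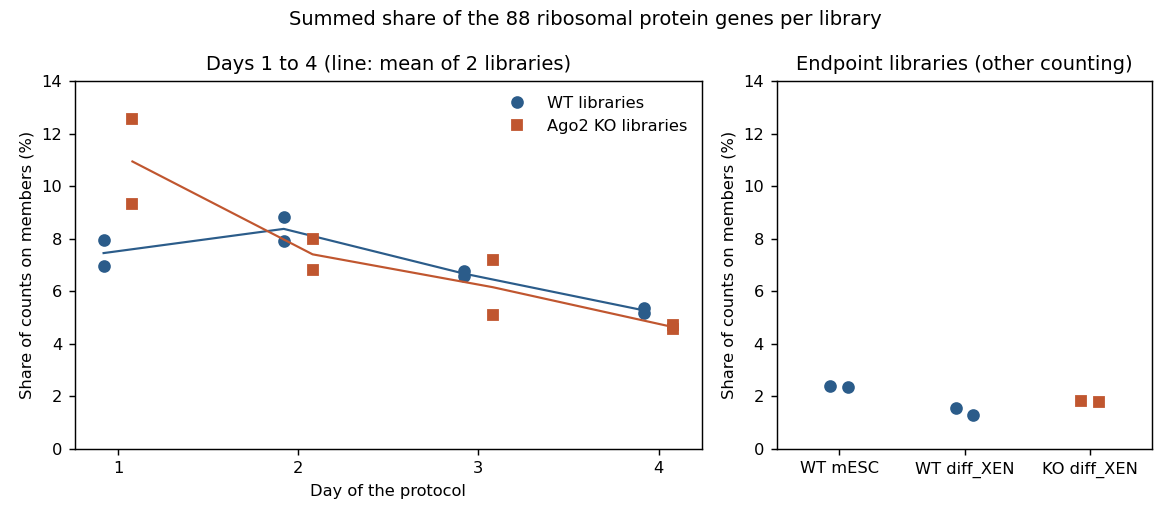
Share of all counts (percent, y axis) on the 88 ribosomal protein genes by day of the protocol (left, lines are means of 2 libraries) and in the endpoint libraries (right), 1 point per library. The KO libraries start at 9.30% and 12.57% on day 1, above both WT libraries, and end at 4.56% and 4.71% on day 4.

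The members moved as a block, and also did so between replicates of the same group. In 87 of 88 members the highest of the 16 libraries was replicate 2 of KO day 1, the exception being Rpl3l, highest in replicate 1 of that group. The lowest library was 1 of the KO day 4 pair for 65 members, replicate 2 for 54 of them. By group means, 58 members peaked on day 2, 27 on day 1 and 3 on day 3 in WT, and 85 were lowest on day 4. In KO, all 88 peaked on day 1 and 87 were lowest on day 4. Between the 2 libraries of KO day 1, replicate 2 was higher for 87 of 88 members, with a median log2 difference of 0.55. On KO day 3 it was higher for 3 of 88 members (median -0.48), on KO day 2 for 2 (median -0.21), on WT day 1 for 9 (median -0.22) and on WT day 2 for 80 (median 0.11). The medians of the other genes over the same pairs lay between -0.05 and 0.01. A shared shift of this size between replicates bears on each comparison of the block below.

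**Figure D2:**
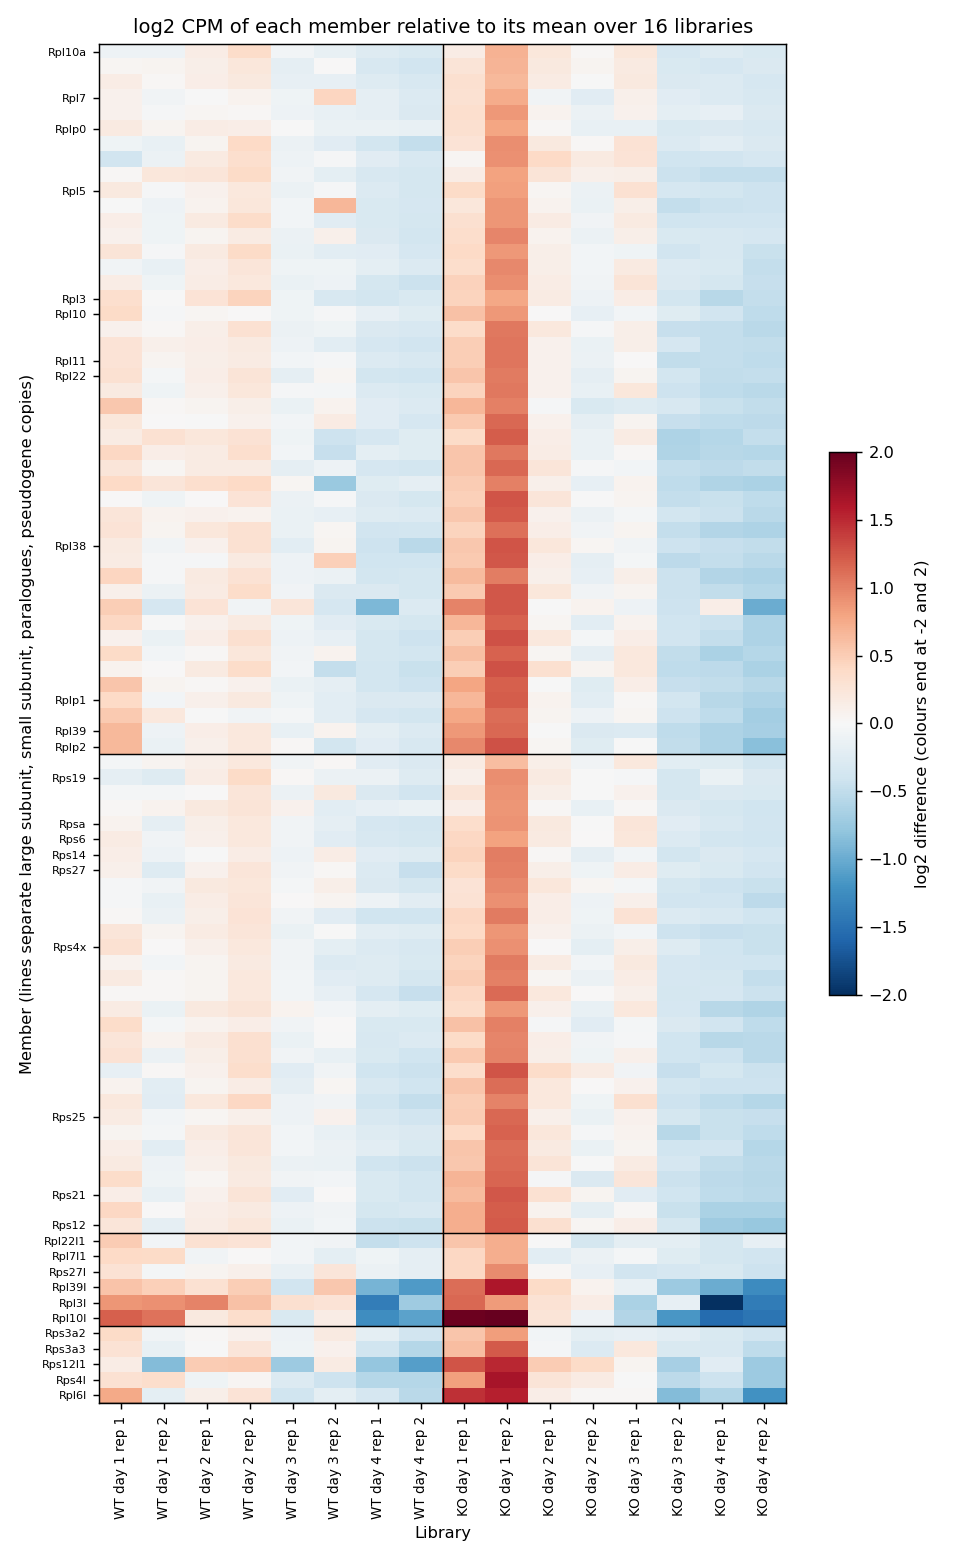
Each row is a member and each column a day 1 to 4 library, and colour is the log2 CPM minus the member's mean over the 16 libraries (colours end at -2 and 2), with names on members that the text describes. Replicate 2 of KO day 1 is the highest library for 87 of 88 members, and the largest range is in Rpl10l, Rpl3l and Rpl39l.

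How ribosomal protein mRNAs move along the protocol was read first in WT, from day 4 against day 1. Of the 88 members, 23 fell and 0 rose at an adjusted p below 0.05 (edgeR), where 21.6% of the 17694 genes tested fell, so the share of members that fell was near that of all genes. The median log2 change was -0.42 for the members and 0.01 for all genes. Both day 4 libraries lay below both day 1 libraries for 83 of 88 members and above them for 0, against 38.9% and 40.2% of all genes. By role, 12 of 46 large-subunit genes (median -0.44), 3 of 31 small-subunit genes (median -0.35), 5 of 6 paralogues (median -1.13) and 3 of 5 pseudogene copies (median -0.67) fell. The count moved from 6 to 30 as each library was left out, with 6 without replicate 1 of WT day 1, 8 without replicate 1 and 7 without replicate 2 of WT day 4, and was 57 without a filter on low counts and 66 in a fit of the 4 libraries alone. The median was -0.31 without replicate 1 of WT day 1, and -0.47 and -0.42 without replicates 1 and 2 of WT day 4, while the share of all genes called in either direction went from 48.5% to 34.1%, 32.8% and 37.4%. Without a filter the median was -0.47 and the share 30.3%. In the fit of the 4 libraries alone they were -0.46 and 57.2%. Without replicate 2 of WT day 1 the median was -0.55.

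The 3 largest falls were those of the paralogues Rpl10l, Rpl3l and Rpl39l, at -1.55 or beyond on the log2 scale, where the lowest value of a core subunit gene was -0.73. Rpl10l, an intronless copy of the X-linked Rpl10 on chromosome 12 (ENSMUSG00000060499, chr12:66283379-66284401, minus strand, GRCm38) that is needed for male meiosis, was at 76.2 and 70.7 CPM on day 1, 38.1 and 42.5 on day 2, 27.2 and 37.1 on day 3, and 14.1 and 15.9 on day 4 in WT. Its log2 change from day 1 to day 4 was -2.29 ± 0.22 (SE, edgeR adjusted p = 2.57e-06), and neither day 4 library came near the earlier days. Rpl10 itself, a large-subunit protein at the peptidyl transferase centre, went from 1373 and 1031 CPM to 939 and 887 CPM (-0.40 ± 0.16, edgeR adjusted p = 0.0556).
Rpl39l, the paralogue of the exit-tunnel protein gene Rpl39 (ENSMUSG00000039209, chr16:10170226-10174911, plus strand), was at 36.5 and 34.3 CPM on day 1 and at 12.9 and 11.2 CPM on day 4 in WT, a log2 change of -1.55 ± 0.28 (edgeR adjusted p = 4.48e-04). Its day 3 libraries, 18.8 and 35.6 CPM, spanned most of that range. Rpl3l, the muscle paralogue of Rpl3 (ENSMUSG00000002500, chr17:24727820-24736143, plus strand), was low throughout, at 3.0 and 3.07 CPM on day 1 and 0.63 and 1.00 CPM on day 4 (-1.87 ± 0.35, edgeR adjusted p = 6.27e-04). Rps4l, a transcribed processed copy related to Rps4x (ENSMUSG00000063171, chr6:148354656-148355598, plus strand), fell from 294 and 302 CPM to 159 and 159.9 CPM (-0.90 ± 0.23, edgeR adjusted p = 0.00459). Rpl22l1 and Rpl7l1 fell as well, by 0.71 and 0.52 on the log2 scale. The paralogue that did not pass was Rps27l, at 231 and 184 CPM on day 1 and 173 and 166 CPM on day 4 (-0.29 ± 0.18).

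Among core proteins with known special roles, few passed the test in WT. The stalk genes Rplp0, Rplp1 and Rplp2 had log2 changes of -0.26, -0.47 and -0.58, and none passed. Rpsa, whose protein also serves as a laminin receptor, had -0.30, and Rps6, the small-subunit protein phosphorylated by S6 kinase, had -0.39. Rpl5 and Rpl11, which bind MDM2 together with the smallest ribosomal RNA, had -0.40 and -0.47. Rpl38, known from patterning defects of mutant mice, fell from 305 and 256 CPM to 202 and 185 CPM (-0.53 ± 0.21, edgeR adjusted p = 0.0461). Rps19, the gene most often mutated in Diamond-Blackfan anaemia, was at 663 and 629 CPM on day 1, 829 and 975 on day 2, 760.1 and 692 on day 3, and 693 and 627 on day 4. That gave a log2 change of 0.03 ± 0.22, the one positive estimate among the 88. Rps14, Rpl10a and Rps25 had log2 changes of -0.26, -0.18 and -0.41, and none passed.

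In KO the fall from day 1 to day 4 reached every member. All 88 fell and 0 rose (edgeR), where 32.9% of all genes fell, and the median log2 change was -1.27 against -0.02 for all genes. Both day 4 libraries lay below both day 1 libraries for all 88 members and above them for 0, against 41.8% and 40.5% of all genes, and log2 changes ran from -0.70 to -3.64. The count was 84 to 88 as each library was left out, and without replicate 2 of KO day 1 the median was -0.96. The 4 largest falls were those of Rpl10l, Rpl3l, Rpl39l and the pseudogene copy Rpl6l. Rpl10l was at 129.6 and 166 CPM on day 1, 39.8 and 31.0 on day 2, 22.2 and 14.8 on day 3, and 11.5 and 12.2 on day 4 (-3.64 ± 0.23, edgeR adjusted p = 6.18e-08). Rpl3l went from 3.63 and 2.95 CPM to 0.38 and 0.62 CPM (-2.69 ± 0.37, edgeR adjusted p = 2.44e-05). Rpl39l went from 53.5 and 75.01 CPM to 12.4 and 10.3 CPM (-2.51 ± 0.29), and Rpl6l, which shares 76.4% of its stretches with other genes, from 18.2 and 19.2 CPM to 4.35 and 2.85 CPM (-2.38 ± 0.34). On day 1 the KO libraries lay above the WT libraries for Rpl10l, Rpl39l and Rpl6l and overlapped them for Rpl3l.

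The stalk genes Rplp0, Rplp1 and Rplp2 fell by 0.89, 1.55 and 1.85 on the log2 scale in KO. Rplp2 was at 1305 and 1623 CPM on day 1 and 438 and 375 CPM on day 4, and Rplp1 at 2509 and 3658 CPM and 1075 and 1034 CPM. Rps12, a small-subunit protein, fell from 1867 and 2647 CPM to 688 and 669.5 CPM. Rps19, flat in WT, was at 808 and 1429 CPM on day 1 and 682 and 613 CPM on day 4 in KO (-0.79 ± 0.22, edgeR adjusted p = 0.00527). Its day 1 pair differed between replicates more than its replicate 1 differed from day 4.

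Whether the fall differed by genotype was tested as the KO change minus the WT change. In all, 11 members passed, all with a more negative change in KO, and 0 passed in the other direction (edgeR), where 3.83% of all genes passed in the negative and 2.59% in the positive direction (6.42% in all). All 88 estimates were negative, with a median of -0.83 against -0.02 for all genes. The largest were Rpl10l (-1.35 ± 0.30, edgeR adjusted p = 0.022), Rplp2 (-1.27 ± 0.34, adjusted p = 0.0403), Rps12 (-1.26 ± 0.29, adjusted p = 0.0239) and Rps21 (-1.16 ± 0.27, adjusted p = 0.0243). Rps21, a small-subunit protein, was at 430.1 and 352 CPM on day 1 and 319 and 303 CPM on day 4 in WT, and at 606 and 930.2 CPM and 277 and 269 CPM in KO. By role, the 11 were 10 core genes and 1 paralogue, Rpl10l. The calls depended on single libraries. None of the 11 held without replicate 2 of either day 1 group, or without any 1 of the 4 day 4 libraries. In those settings the share of all genes called fell as well, and it rose without replicate 1 of KO day 1. The median of the members was -1.12 without replicate 1 and -0.49 without replicate 2 of KO day 1. Without replicate 2 of WT day 1 or any 1 of the day 4 libraries it stayed between -0.75 and -0.88.

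**Figure D3:**
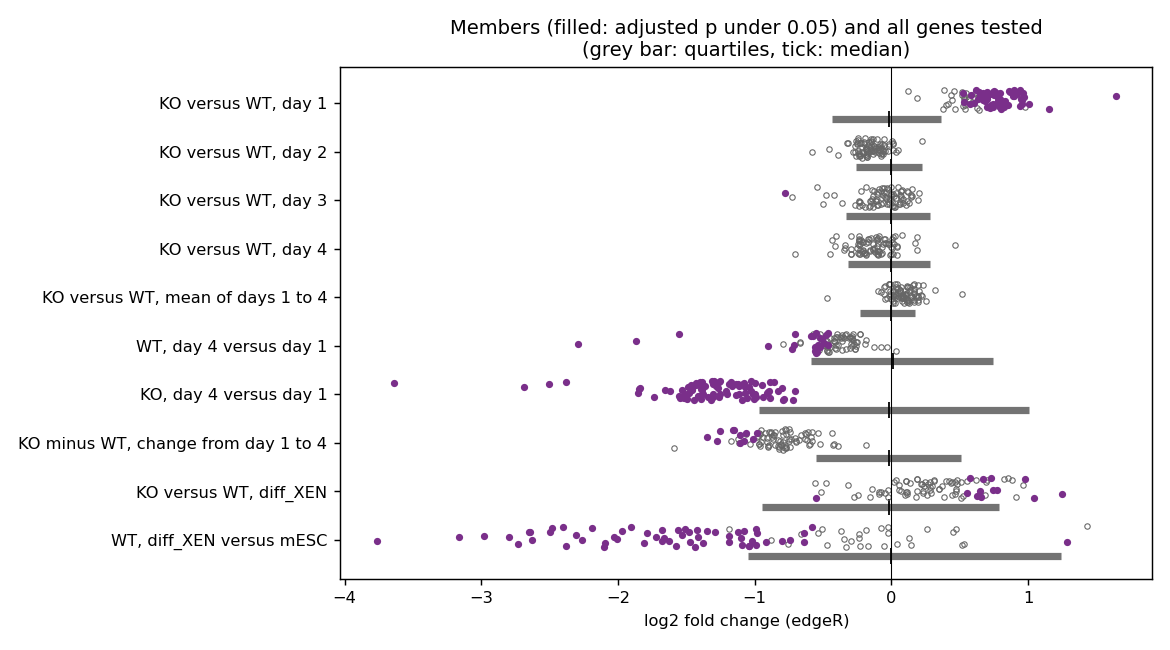
Log2 fold changes (edgeR, x axis) of the members in 10 comparisons, 1 point per member, filled where the adjusted p was below 0.05. The grey bar spans the quartiles and the tick marks the median of all genes tested. On KO day 4 against day 1 all 88 points are filled, with a median of -1.27.

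Genotypes were then compared day by day. On day 1, 60 of 88 members were higher in KO and 0 were lower (edgeR), where 6.89% of 17694 genes were higher and 6.71% lower. The median log2 difference was 0.70 for the members and -0.02 for all genes, and the estimates ran from 0.12 to 1.64. Both KO libraries lay above both WT libraries for 86 of 88 members and below them for 0, against 31.3% and 34.2% of all genes. By role, 28 of 46 large-subunit genes (median 0.68), 25 of 31 small-subunit genes (median 0.75), 2 of 6 paralogues and 5 of 5 pseudogene copies (median 0.96) were higher. The count depended on single libraries, for the members as for all genes, of which 13.6% were called in either direction. Without replicate 2 of KO day 1 no member was called at a median of 0.41, with 0.249% of all genes called, and without replicate 2 of WT day 1 no member at a median of 0.62, with 0.348%. Without replicate 1 of WT day 1, 19 members were called at a median of 0.87, with 3.63% of all genes, and without replicate 1 of KO day 1, 83 at 1.04, with 23.3%.

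The largest called differences on day 1 were those of Rps12l1, Rpl6l, Rpl10l and Rps21. Rps12l1 was at 1.47 and 1.75 CPM in KO and 0.68 and 0.34 CPM in WT (1.64 ± 0.40, edgeR adjusted p = 0.0249). All of its 50-base stretches also occur somewhere among 25 other genes. Rpl6l was at 18.2 and 19.2 CPM in KO and 11.1 and 5.72 CPM in WT (1.15 ± 0.32, edgeR adjusted p = 0.033). Rpl10l, with little shared sequence (7.60%), was at 129.6 and 166 CPM in KO and 76.2 and 70.7 CPM in WT (1.01 ± 0.20, edgeR adjusted p = 0.0137). Rps21 was at 606 and 930.2 CPM against 430.1 and 352 CPM (0.97 ± 0.19, edgeR adjusted p = 0.0113). In each of these 4 the groups did not overlap.
Of the genes with special roles, Rplp1 (0.78), Rplp2 (0.82), Rpsa (0.70), Rps6 (0.57), Rpl11 (0.64), Rpl38 (0.89), Rps19 (0.79), Rps14 (0.74) and Rps25 (0.80) were higher in KO. Rplp0 (0.46), Rpl5 (0.52) and Rpl10a (0.54) did not pass, with edgeR adjusted p of 0.0608, 0.0816 and 0.073. Rpsa, the member with the most counts of these, was at 3378 and 4924 CPM in KO and 2771 and 2346 CPM in WT. The paralogue Rpl39l was higher, at 53.5 and 75.01 CPM against 36.5 and 34.3 CPM (0.86 ± 0.27, edgeR adjusted p = 0.046). Rpl3l (0.12 ± 0.29), Rpl7l1 (0.19 ± 0.14) and Rpl22l1 (0.38 ± 0.17) had the smallest differences of the 88.

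Transcript length moved with the day 1 difference. Among mRNAs under 750 bases, replicate 2 of KO day 1 exceeded the WT mean by a median log2 of 1.01 in 29 members and 0.87 in 724 other genes, and replicate 1 by 0.43 and 0.42. From 750 to 1500 bases the medians for replicate 2 were 0.98 in 46 members and 0.54 in 1864 other genes, and from 1500 to 3000 bases 0.82 in 10 members and 0.15 in 4770 other genes. In replicate 1 those medians were 0.38 and 0.18, and 0.30 and 0.05. At 3000 bases and above, other genes were at -0.37 in replicate 2 and -0.15 in replicate 1, and 2 members were at 0.92 and 0.45. The members therefore sat among the short genes, which as a class were higher in these libraries, while the longer members were above other genes of their length. In the WT change from day 1 to day 4 the same bins gave -0.42 in members and -0.34 in other genes under 750 bases, -0.40 and -0.23 from 750 to 1500 bases, -0.40 and -0.02 from 1500 to 3000 bases, and -0.45 and 0.22 at 3000 bases and above. The part of transcript length in these results was not tested.

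On days 2, 3 and 4 few or no members passed the test between genotypes. On day 2, 0 of 88 members were called (edgeR), where 1.63% of all genes were called in either direction. The median was -0.15, 81 estimates were negative, and 1 member had an unadjusted p below 0.05. Both KO libraries lay below both WT libraries for 39 of 88 members and above them for 1, against 29.0% and 26.9% of all genes. On day 3, 1 member, Rpl10l, was lower in KO, at 22.2 and 14.8 CPM against 27.2 and 37.1 CPM (-0.78 ± 0.21, edgeR adjusted p = 0.0497), where 3.0% of all genes were lower, 1.83% higher and 4.83% called in all, and the median of the members was -0.04 (0.19 without replicate 2 of KO day 3). That call was lost without replicate 2 of WT day 3, without replicate 2 of KO day 3 and in a fit of the 4 libraries alone. On day 4, 0 of 88 were called (edgeR), where 5.05% of all genes were lower and 1.99% higher (7.04% in all), the median was -0.13, and 0 had an unadjusted p below 0.05. Both KO libraries of day 4 lay below both WT libraries for 63 of 88 members and above them for 3, against 27.2% and 26.4% of all genes. Rplp2 was at 438 and 375 CPM in KO and 572 and 539.8 CPM in WT on that day (-0.45 ± 0.24, edgeR adjusted p = 0.31). Averaged over the 4 days, 0 members were called (edgeR), where 17.5% of all genes were, the median was 0.08, and 3 had an unadjusted p below 0.05. DESeq2 called 0 members on day 2 (3.45% of all genes called), 1 on day 3 (7.56%) and 0 on day 4 (9.51%). Over the average of days DESeq2 called 1 member, where 3534 of 17694 genes were called.

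Ratios between a paralogue and its main gene within a library do not depend on scaling, and were tested for all 6 pairs. They are ratios of counts not divided by length, so changes are read within a pair only. Rpl10l counted for 5.55 and 6.86 per 100 counts of Rpl10 on day 1 in WT and 1.51 and 1.80 on day 4, and for 8.28 and 8.71 on day 1 and 1.44 and 1.67 on day 4 in KO. The ratio was thus lower in both day 4 libraries than in both day 1 libraries in each genotype, with group means of 6.21 ± 0.93 and 1.65 ± 0.20 in WT and 8.50 ± 0.30 and 1.55 ± 0.16 in KO (SD, n = 2). Rpl39l counted for 7.52 and 11.8 per 100 counts of Rpl39 on day 1 and 4.77 and 4.38 on day 4 in WT, and for 9.42 and 10.9, then 6.12 and 5.27, in KO. Rpl3l to Rpl3 went from 0.20 ± 0.04 to 0.08 ± 0.02 per 100 in WT and from 0.16 ± 0.05 to 0.05 ± 0.02 in KO. These falls with time were not tested. Rpl22l1 to Rpl22 moved in opposite directions by mean, from 33.9 ± 3.7 to 30.2 ± 1.6 per 100 in WT and from 28.5 ± 4.5 to 37.0 ± 3.2 in KO, and Rpl7l1 to Rpl7 stayed between 10.8 and 17.0 per 100 by group mean.

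Over the 4 days, the ratio that differed by genotype was that of Rps27l to Rps27, a p53-responsive paralogue and its main gene in the small subunit. Rps27 shares 98.6% of its 50-base stretches with other genes and Rps27l 22.4%, so the Rps27 counts are uncertain. The part of read assignment in this ratio was not tested. Per 100 counts of Rps27, Rps27l gave 42.6 and 43.6 on day 1, 36.7 and 33.9 on day 2, 35.5 and 43.7 on day 3, and 41.4 and 45.5 on day 4 in WT. In KO it gave 38.0 and 35.7, 34.9 and 35.4, 25.8 and 35.1, and 37.4 and 36.7. The groups overlapped on day 2 and not on days 1, 3 and 4. The mean log2 difference, KO minus WT, was -0.21 (exact permutation test within days over 1296 arrangements, two-sided p = 0.0077, adjusted over the 6 ratios 0.0463). The call was lost when any 1 of 10 of the 16 libraries, or any 1 of the days, was left out. Leaving out day 3 gave -0.15. For Rpl3l to Rpl3 the difference was -0.47 (exact permutation p = 0.0231, adjusted 0.0694). For Rpl39l, Rpl22l1, Rpl10l and Rpl7l1 it was 0.10, -0.06, -0.11 and -0.06, with exact permutation p of 0.412, 0.549, 0.485 and 0.590. Opposite differences between days cancel in this mean. Rpl10l gave 8.50 per 100 in KO and 6.21 in WT on day 1, and 1.94 and 3.18 on day 3. Rpl22l1 gave 28.5 in KO and 33.9 in WT on day 1, and 37.0 and 30.2 on day 4. Single days were not tested. The smallest p that this design can give is 0.0015.

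**Figure D4:**
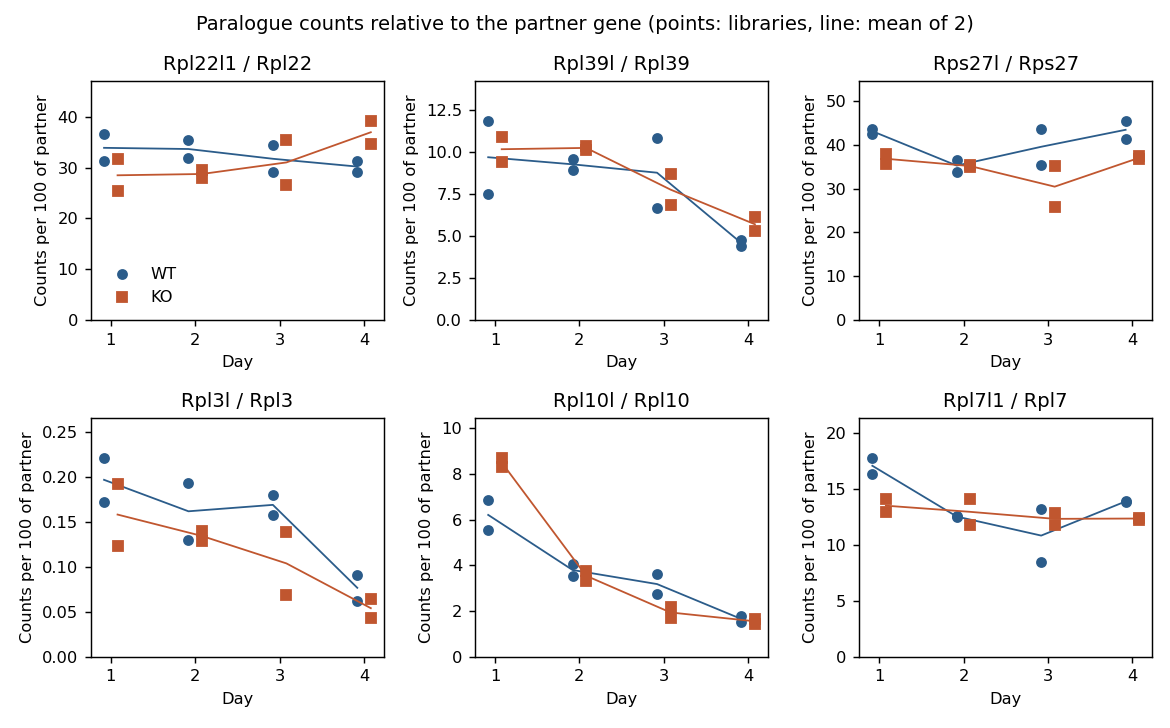
Counts of each paralogue per 100 counts of its main gene (y axis, from 0) by day, 1 point per library and lines through means of 2. Rpl10l falls from 5.55 and 6.86 to 1.51 and 1.80 in WT and from 8.28 and 8.71 to 1.44 and 1.67 in KO, and Rps27l in KO lies below WT on days 1, 3 and 4.

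Most of these genes had far lower levels in the endpoint libraries than on days 1 to 4, unlike other genes, so no change is read between the sets. The mean CPM on days 1 to 4 exceeded that of the endpoint set by a median log2 of 2.63 over the 88 members, with quartiles of 1.25 and 4.43, against 0.07 over 16182 other genes. It was 3.91 for the 45 members that share at least 50% of their stretches and 1.64 for the 43 that share less, and across the 88 members its Spearman rho with the share was 0.44. The gap was widest for Rpl23a (7.07), Rps29 (6.93) and Rps27 (6.79), which were picked for their values, and was reversed for the pseudogene copies Rpl6l (-4.18) and Rps3a2 (-1.31). Rps27 was at 366 to 1015 CPM on days 1 to 4 and at 2.52 to 8.20 CPM in the endpoint set. Entries named as pseudogenes of these genes held 0.0584% to 0.165% of counts on days 1 to 4 and 0.402% to 0.729% in the endpoint set. How reads that match several genes were counted in either set is not given in the sources used here, and the cause of the gap was not tested.

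**Figure D5:**
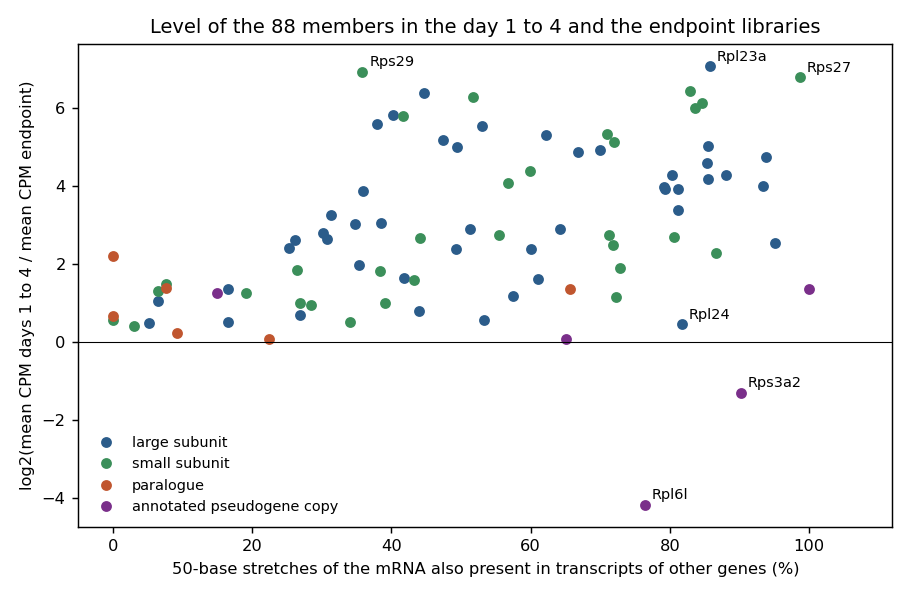
Each point is a member, with the percent of its 50-base stretches found in other genes (x axis) and the log2 ratio of its mean CPM on days 1 to 4 to that in the endpoint libraries (y axis). Most points lie above 0, with a median of 2.63, and Rpl6l and Rps3a2 lie below.

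In the endpoint set the members took 2.40% and 2.33% of counts in WT mESC, 1.54% and 1.27% in WT diff_XEN, and 1.82% and 1.78% in KO diff_XEN (clones C4 and 5-3). Between WT diff_XEN and WT mESC, 58 of 88 members were lower and 1 was higher (edgeR), where 25.3% of 17936 genes were lower and 27.2% higher (52.5% in all), with a median of -1.11 against -0.00 for all genes. The libraries did not overlap for 67 lower and 6 higher members, against 38.5% and 39.2% of all genes. All 6 paralogues were lower. Rpl3l was at 1.10 and 1.21 CPM in mESC and 0.11 and 0.05 CPM in diff_XEN (-3.76 ± 0.78, edgeR adjusted p = 0.0061), and Rpl22l1 at 80.4 and 185 CPM and 20.4 and 17.8 CPM (-2.80 ± 0.40, edgeR adjusted p = 0.00134). Rpl3, a core protein beside the peptidyl transferase centre, was at 214 and 181 CPM and 19.99 and 24.1 CPM (-3.16 ± 0.23), and Rps13 at 10.8 and 18.4 CPM and 1.84 and 1.86 CPM (-2.98 ± 0.45). Rpl3 and Rps13 share 85.6% and 83.0% of their stretches with other genes. Rplp1 went the other way, with 212 and 79.96 CPM in mESC and 439 and 272 CPM in diff_XEN (1.28 ± 0.45, edgeR adjusted p = 0.0456), and it shares 60.0%. The members under 50% sharing were lower in 22 of 43 cases (median -0.88) and the others in 36 of 45 (median -1.35). The mESC counts came from files of their own, so group and file source cannot be told apart.

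Between KO and WT diff_XEN, 12 of 86 members were higher and 1 was lower (edgeR), where 22.1% of 16671 genes were higher and 24.9% lower, so a smaller share of members than of all genes was called. Both KO libraries lay above both WT libraries for 60 of 86 members and below them for 10, against 38.1% and 41.4% of all genes. The median was 0.29 against -0.02 for all genes, and Rpl3l and Rps12l1 did not pass the filter on low counts. Rps4l was at 170 and 196 CPM in KO and 97.6 and 59.2 CPM in WT (1.25 ± 0.28, edgeR adjusted p = 0.0176), and Rpl37 at 61.8 and 62.3 CPM against 32.3 and 29.0 CPM (1.04 ± 0.17, edgeR adjusted p = 0.0064). Rpl8 was at 1059 and 1121 CPM against 651 and 477 CPM (0.98 ± 0.22, edgeR adjusted p = 0.0176), and Rpl22l1 at 34.3 and 29.9 CPM against 20.4 and 17.8 CPM (0.77 ± 0.19, edgeR adjusted p = 0.0234). Rpl7, a large-subunit protein, was the member that was lower, at 576 and 582 CPM against 846 and 881 CPM (-0.55 ± 0.16, edgeR adjusted p = 0.0399). The groups did not overlap for these 5 genes. Rps19 (0.65), Rps14 (0.75) and Rpl10a (0.67) were higher as well, and the stalk genes, at 0.38 to 0.44, did not pass. The 4 libraries also differed in the share of counts on mitochondrial genes, 0.78% and 0.98% in KO against 1.94% and 2.64% in WT, whose part in the result was not tested. With each library left out in turn the count was 21 without WT library A, 3 without WT library B, 1 without clone C4 and 1 without clone 5-3. The median was 0.41, 0.24, 0.29 and 0.33 in that order, and the share of all genes called went from 47.0% to 40.4%, 29.6%, 24.5% and 24.1%.

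Other genes of the translation machinery were counted in the same fits from lists of 7 to 75 measured genes. Of all genes tested on day 1, 6.89% were higher and 6.71% lower in KO. On day 1, 5 of 20 other TOP genes were higher in KO and 0 lower (edgeR, median 0.39), among them Fau (0.80 ± 0.20), which encodes a ribosomal protein fused to a ubiquitin-like domain, and Tpt1 (0.75 ± 0.17). Of 7 snoRNA host genes of that class, 2 were higher (median 0.54), Epb41l4aos (0.89 ± 0.25) and Snhg5 (0.54 ± 0.16). Among 75 mitochondrial ribosomal protein genes, whose products form the separate ribosome of mitochondria, 30 were higher and 0 lower (median 0.54), and those with the smallest p-values were Mrpl34 (0.87 ± 0.18), Mrpl16 (0.72 ± 0.16) and Mrpl11 (0.77 ± 0.17). Of 56 ribosome biogenesis factors, 7 were higher and 1 lower (median 0.34), with Nhp2 (0.97 ± 0.20) and Nop10 (0.89 ± 0.20), 2 small proteins of the pseudouridylation complex, and Pno1 (0.59 ± 0.15). These counts rest on the same day 1 libraries as those of the members. Under 750 bases, non-member genes exceeded the WT mean by median log2 values of 0.87 in replicate 2 and 0.42 in replicate 1 of KO day 1. The part of transcript length and of single libraries in these lists was not tested.

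From day 1 to day 4, biogenesis factors fell in 42 of 56 cases in WT (median -0.65) and 49 of 56 in KO (median -1.09), with 0 higher in each. Of all genes, 21.6% fell and 26.9% rose in WT, and 32.9% fell and 33.3% rose in KO. In WT they included Rpf2 (-1.25 ± 0.17), Rrp12 (-1.04 ± 0.13) and Tcof1 (-0.92 ± 0.12), and in KO Nop10 (-2.65 ± 0.22), Nhp2 (-2.19 ± 0.21) and Rrp9 (-2.11 ± 0.20). A larger share of biogenesis factors than of ribosomal protein genes was thus called in WT, and the difference between the lists was not tested. The mitochondrial ribosomal list fell in 40 of 75 in WT (median -0.49) and 74 of 75 in KO (median -1.23). Of the other TOP genes, 7 of 20 fell and 2 rose in WT, with Npm1 at -0.94 ± 0.16 and the filament gene Vim at 4.18 ± 0.48, and 12 fell and 1 rose in KO. Of the snoRNA hosts, 6 of 7 fell in each genotype, with medians of -0.87 in WT and -1.70 in KO, Snhg3 at -1.49 ± 0.23 in WT and -2.33 ± 0.23 in KO. In the test of the difference in change, 9 of 56 biogenesis factors, 13 of 75 mitochondrial ribosomal genes, 2 of 20 other TOP genes and 1 of 7 snoRNA hosts passed, all more negative in KO. Of all genes, 3.83% passed in that direction and 2.59% in the other.

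Regulators were counted in the same way. Of all genes, 6.89% were higher and 6.71% lower in KO on day 1. From day 1 to day 4, 26.9% rose and 21.6% fell in WT, and 33.3% rose and 32.9% fell in KO. The shares called with time among mTORC1 and TOP regulators and among quality control genes were near or below those of all genes. Of 21 mTORC1 and TOP regulators, 1 was higher and 2 were lower in KO on day 1, namely the helicase gene Eif4a1 (0.61 ± 0.15), Mtor (-0.51 ± 0.15) and the inhibitor gene Tsc1 (-0.56 ± 0.17). From day 1 to day 4, 4 rose and 1 fell in WT and 8 rose and 4 fell in KO, and Eif4a1 fell in both (-0.79 ± 0.15 and -1.40 ± 0.16). Of 10 MYC family genes, Mycn was higher (0.83 ± 0.24) and Mga lower (-0.89 ± 0.27) in KO on day 1, and Mycn rose from day 1 to day 4 by 3.17 ± 0.25 in WT and 1.39 ± 0.23 in KO. Of 15 p53 pathway genes, Bax was higher in KO on day 1 (0.73 ± 0.19), and with time 9 rose and 3 fell in WT (Cdkn1a 2.63 ± 0.34) and 11 rose and 2 fell in KO. Over the mean of days, 6 of the 15 were higher and 0 lower in KO, against 7.52% and 10.0% of all genes. In diff_XEN, 7 were higher and 1 was lower in KO, against 22.1% and 24.9% of all genes. Among 14 ribosome quality control and hibernation genes, Gcn1l1 was lower in KO on day 1 (-0.51 ± 0.15), and with time 4 rose and 2 fell in WT and 5 rose and 5 fell in KO. In the endpoint set, 18 of 57 biogenesis factors were lower and 3 higher in KO than in WT diff_XEN (edgeR), with Dkc1 at -2.09 ± 0.19 and Ncl at -2.21 ± 0.22, and 51 of 57 were lower in WT diff_XEN than in mESC. Of all genes, 24.9% were lower and 22.1% higher in KO than in WT diff_XEN, and 25.3% were lower in WT diff_XEN than in mESC.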

How the data were processed

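The authors deposited raw read counts per gene, per the labels from TruSeq libraries described as reverse-stranded, and the submitters' processing notes name STAR 2.5.0c, featureCounts 1.4.5-p1 and mm10. The annotation and the strand setting of the counting are not given in the sources used here. From 24 samples, 22 libraries were used. KO mESC was not analysed here, some single genes are not reported here, and 3 columns tied to no sample were used in no step. The test was edgeR's quasi-likelihood F-test (edgeR 4.0.16, R 4.3.3) on group means, after its default filter on low counts and with TMM normalization. The 16 course libraries, the 4 diff_XEN libraries and the 6 endpoint libraries (for diff_XEN against mESC) each formed 1 fit over all genes. The threshold was 0.05 after Benjamini-Hochberg adjustment. The SE printed with an edgeR log2 change was derived from the test, as the absolute change divided by the square root of the F statistic. The fit was run on simulated data with the same spread for every gene and no shift shared among the genes of a library. There, 93% of genes changed by a log2 of 1 and 100% of those changed by 2 were recovered for day 1. The simulation tested 17110 genes and gave 14 false calls. Replicates of the real data differ by shared shifts, so these values do not measure recovery or false calls in them.

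Members and lists were chosen with earlier results of these data known. The text names the paralogues and their main genes, 12 members with special roles, up to 4 called members per direction and comparison with the largest change, the 3 highest and 3 lowest per kilobase, called members against the majority direction, and up to 3 genes per list, by the smallest p-values. Members outside that rule are named as picked for their values or to complete a count. Ratios used 0.5 added counts, scipy 1.17.1 and statsmodels 0.14.6. Replicate pairs differed by more than sampling noise (chi-square per degree of freedom 12.6 to 149). Alternatives were DESeq2 1.42.0 and its size factors, TMM without the members, no filter, pseudogene entries added, a replicate block, fits of 4 libraries, and each library left out, where the spread of the remaining library is taken from the other groups.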

Additional observations from a re-analysis of the deposited data

Results flagged for a closer look

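In all, 11 members changed differently between day 1 and day 4 in KO and WT by the interaction test of edgeR. For 10 of them the KO change minus the WT change was as follows. It was -1.35 for Rpl10l, -1.27 for Rplp2, -1.26 for Rps12 and -1.16 for Rps21. For the others it was -1.15 for Rpl36, -1.11 for Rps28 and Rpl39, -1.08 for Rplp1, -1.02 for Rps16 and -0.98 for Rpl27. All 11 fell in KO, and in WT Rpl10l and Rpl39 were among those that fell. None of these calls held without replicate 2 of KO day 1, without replicate 2 of WT day 1 or without any 1 of the day 4 libraries. The median difference of the 88 members was -0.83 in the full set. It was -0.49 without replicate 2 and -1.12 without replicate 1 of KO day 1.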

How the results depend on the processing

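Fall in KO: every alternative called 84 to 88 members, and WT diff_XEN against mESC kept its count within 1.5 times. Members called as each library was left out ranged from 0 to 83 on day 1 (60 in the full set), 0 to 3 on day 3 (1), 0 to 15 over the mean of days (0), 6 to 30 for the WT change (23), 0 to 76 for the difference in change (11) and 1 to 21 for KO against WT diff_XEN (13). The share of all genes called also moved with the library left out. On day 3 the count was 0 with TMM without the members (4.85% of all genes called), with pseudogene entries added (5.34%) and in the fit of 4 libraries (0.231%). It was 2 without a filter (7.03%), and the main fit called 4.83% of all genes. Over the mean of days it was 1 with DESeq2 (3534 of 17694 genes called) and 3 without a filter (13.3% of all genes). It was 1 with pseudogene entries added (18.5%), against 0 in the main fit (17.5%). The WT change gave 57 without a filter (30.3% of all genes called) and 66 in the fit of 4 libraries (57.2%), against 48.5% in the main fit. The difference in change gave 44 with DESeq2 (12.6% of all genes called) and 71 without a filter (9.35%), against 6.42% in the main fit. The mean share in the endpoint set was 1.86%, 2.45% with pseudogene entries and 2.10% with the 50 largest other genes left out of the total. The cause of these differences was not tested.

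Replicate numbers were not used to pair the libraries in the main fit. Deviations of same-numbered libraries correlated over all genes at -0.18 to 0.39 over 28 pairs of groups, above 0.1 in 7. Over the members alone the correlations ran from -0.65 to 0.57. Such correlations cannot exclude a pairing. With the replicate block, 7 members passed the difference in change (4.72% of all genes) and 0 passed on day 3 (4.33%). On day 1, 48 passed (10.6%), and 17 passed the WT change (47.4%). The ratio of Rps27l to Rps27 stayed at -0.21 under the block, with an exact adjusted p of 0.0938. Leaving out 1 library moved that ratio from -0.27 to -0.16, with adjusted p from 0.0093 to 0.137, and leaving out day 1, 2, 3 or 4 gave -0.21, -0.28, -0.15 and -0.21, none passing. The ratio of Rpl3l to Rpl3 passed without replicate 2 of WT day 2 (-0.54) or without replicate 1 of KO day 1 (-0.55), and ranged over left-out libraries from -0.59 to -0.34. No called value changed sign. Of the values not called, the ratio of Rpl10l to Rpl10 went from -0.11 to 0.09 without day 3, that of Rpl7l1 to Rpl7 from -0.06 to 0.02 without replicate 1 of WT day 3 and 0.03 without day 1, that of Rpl22l1 to Rpl22 from -0.06 to 0.01 without day 1, and the day 3 median from -0.04 to 0.19 without replicate 2 of KO day 3. The 2 libraries per group limit every test, and the lowest Rpl3l count was 5 in a library.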
